A study of Mus musculus with 31 samples.

Results

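Histone H3 trimethylated at lysine 4 (H3K4me3) was compared between wild type mice given TAK-418 and wild type mice given the vehicle. The members were chosen by antibody, genotype and treatment label: 8 of the 31 libraries of the series, 4 per group. With them came all 2780 regions of the authors' deposited list of differential H3K4me3 regions for this pair of groups. Both groups were C57BL6 mice with intact Kmt2d, aged 30 days, and the tissue was the hippocampus. The treated mice received 1 mg/kg/day of TAK-418 by oral gavage for 2 weeks, and the control mice received methylcellulose, the vehicle, for the same time. The other libraries of the series came from mice with a βGeo insertion in 1 copy of Kmt2d, under the same treatments, or were made with an H3K4me1 antibody. Each library carries its own mouse number, so a group is 4 mice. Hippocampi were profiled whole, so fewer cells of a type and less of the mark per cell cannot be told apart.

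H3K4me3 sits on nucleosomes at the starts of active and poised genes, where it is written by KMT2 and SETD1 enzymes with shared subunits such as Dpy30 and Men1, and erased by KDM5 and KDM2B demethylases. LSD1, encoded by Kdm1a, works with CoREST and removes methyl groups from mono- and dimethylated lysine 4, but not from the trimethylated form. TAK-418 inhibits LSD1. The comparison asks what this inhibition does to H3K4me3 in a hippocampus with both copies of Kmt2d.

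The 6 promoters below are shown because the listed regions described later lie at these starts, mostly on the downstream side and so largely outside the windows: a pair listed higher with TAK-418, a pair listed lower, and a pair of ribosomal protein genes listed lower. Each is the 250 bases before the start in RefSeq (mm10, GRCm38), read 5′ to 3′ on the gene's strand. Capitals mark the GC box GGGCGG, bound by SP and KLF factors, and the ETS core CCGGAAG, on either strand. The windows are chr7:123982578-123982827 (Hs3st4, plus strand), chr13:53286125-53286374 (Ror2, minus), chr8:60632575-60632824 (Mfap3l, plus), chr13:8871045-8871294 (Wdr37, minus), chr14:18270987-18271236 (Rpl15, minus) and chr7:141447401-141447650 (Rplp2, plus).
Hs3st4: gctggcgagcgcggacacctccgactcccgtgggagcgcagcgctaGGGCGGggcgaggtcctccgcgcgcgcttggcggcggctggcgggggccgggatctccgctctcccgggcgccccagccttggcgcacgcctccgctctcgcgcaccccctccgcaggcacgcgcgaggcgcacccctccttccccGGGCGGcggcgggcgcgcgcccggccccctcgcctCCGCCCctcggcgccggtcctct
Ror2: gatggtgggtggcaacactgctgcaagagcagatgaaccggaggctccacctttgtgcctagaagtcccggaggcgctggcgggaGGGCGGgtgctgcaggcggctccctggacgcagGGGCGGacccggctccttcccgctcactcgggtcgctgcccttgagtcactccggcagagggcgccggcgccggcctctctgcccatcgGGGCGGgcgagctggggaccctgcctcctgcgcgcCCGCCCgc
Mfap3l: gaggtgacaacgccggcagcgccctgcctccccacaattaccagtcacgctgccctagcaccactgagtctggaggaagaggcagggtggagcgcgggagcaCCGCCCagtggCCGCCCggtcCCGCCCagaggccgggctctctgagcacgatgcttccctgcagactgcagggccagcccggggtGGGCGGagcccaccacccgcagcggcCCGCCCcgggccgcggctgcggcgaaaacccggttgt
Wdr37: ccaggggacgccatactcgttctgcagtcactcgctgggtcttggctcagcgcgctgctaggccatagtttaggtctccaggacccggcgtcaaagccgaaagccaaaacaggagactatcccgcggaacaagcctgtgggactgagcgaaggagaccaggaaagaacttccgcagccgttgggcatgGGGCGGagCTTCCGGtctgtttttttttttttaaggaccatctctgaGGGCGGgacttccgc
Rpl15: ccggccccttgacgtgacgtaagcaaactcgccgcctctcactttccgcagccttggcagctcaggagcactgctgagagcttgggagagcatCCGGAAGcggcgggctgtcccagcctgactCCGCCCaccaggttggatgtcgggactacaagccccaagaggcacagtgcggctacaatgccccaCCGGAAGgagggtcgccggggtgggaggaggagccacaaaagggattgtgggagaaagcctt
Rplp2: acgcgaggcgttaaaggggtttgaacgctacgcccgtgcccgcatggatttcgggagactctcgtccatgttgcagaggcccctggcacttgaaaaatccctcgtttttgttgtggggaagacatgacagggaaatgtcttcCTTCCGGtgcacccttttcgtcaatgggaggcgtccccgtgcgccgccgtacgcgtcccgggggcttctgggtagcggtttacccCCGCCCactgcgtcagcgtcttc

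The GC content of these windows ran from 82% in Hs3st4 to 58% in Wdr37, with 43 and 17 CpG dinucleotides. Hs3st4 held 3 GC boxes, Ror2 held 4 and Mfap3l held 5, and none of these 3 held the ETS core. Wdr37 held 2 GC boxes and 1 ETS core. Among the ribosomal protein genes, Rpl15 held 1 GC box and 2 ETS cores, and Rplp2 held 1 of each.

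The peak lists of the 8 libraries differed more within a group than between groups. The TAK-418 libraries held 563, 302, 16750 and 1728 peaks and the vehicle libraries 715, 2281, 13343 and 768. In each group 1 library, the third by accession in both, was far longer than the rest. Both carry an index sequence of the class that all H3K4me1 libraries carry, and the other 6 carry indices of another class, as read from the labelled sequences. Peaks covered 679, 387, 19067 and 1502 kb with TAK-418 and 980, 1594, 13618 and 573 kb with vehicle. A peak lay within 2 kb of the start of 202, 80, 13397 and 1339 protein-coding genes with TAK-418. With vehicle the numbers were 171, 1996, 12338 and 642, of 21900 genes annotated.

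**Figure D1:**
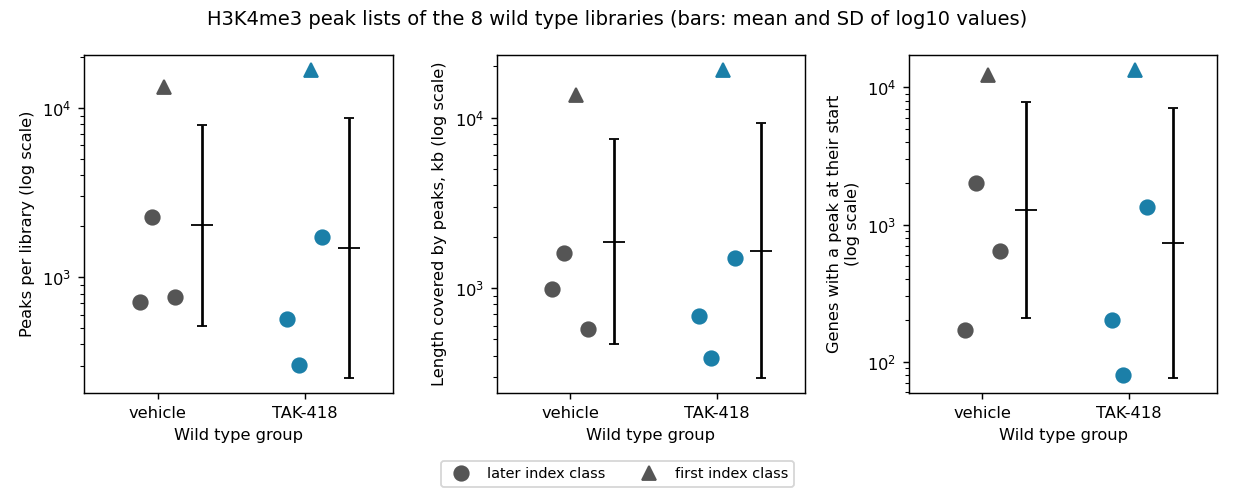
Peaks, covered length in kb and number of genes whose start lies within 2 kb of a peak (log axes) in each wild type H3K4me3 library, with the mean and SD of the log10 values beside them. Triangles are the 1 library per group with the first index class; these hold 13343 and 16750 peaks, and the circles 302 to 2281.

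The mean log10 number of peaks was lower with TAK-418 by −0.13, a ratio of 0.737 (two-sided exact permutation p = 0.686, Benjamini-Hochberg adjusted over 3 measures 0.857, n = 4 per group). Covered length had a ratio of 0.887 (exact p = 0.857, adjusted 0.857). Genes with a peak at their start had a ratio of 0.572 (exact p = 0.686, adjusted 0.857). None of the 3 differences exceeded the spread between libraries, and the smallest p that 4 against 4 can give is 0.0286. Within the other index class alone, TAK-418 libraries held 864 ± 759 peaks and vehicle libraries 1255 ± 889 (SD, n = 3). Taken from the mean log10 numbers, as above, the ratio was 0.617 (exact permutation p = 0.4, where 0.1 is the smallest possible). Leaving out the third vehicle library, or the second TAK-418 library, turned each of the 3 differences positive, and leaving out the first TAK-418 library turned 2 of them. Against the heterozygotes, where the ratio of peaks was 1.07, the treatment effect did not differ detectably (exact permutation within genotype, p = 0.777, n = 16). The depth of the libraries is unknown, since the peak lists hold no read counts.

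The labelled tissue was checked on cell type markers in the long libraries, since the others reached too few genes. In the long TAK-418 and vehicle libraries, 61.2% and 56.3% of all protein-coding genes had a peak at their start. Markers of excitatory hippocampal neurons had such a peak in 21 and 18 of 26 (80.8% and 69.2%). Inhibitory neuron markers had one in 17 and 10 of 22, astrocyte markers in 13 and 6 of 17, and oligodendrocyte lineage markers in 9 and 6 of 16. Markers of choroid plexus and ependyma had one in 3 and 2 of 11, microglia and macrophages in 6 and 5 of 26, vascular cells in 8 and 6 of 18, and blood cells in 1 and 0 of 14. Among these cell types, only the excitatory markers exceeded the share of all genes in both libraries. Each group had a single long library, so the difference between these libraries has no replicate check.

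In the deposited list, H3K4me3 was higher with TAK-418 in 1769 regions and lower in 1011, by the mean of the authors' scores. Each region carries 1 whole-number score per library, and every region has an authors' −log10 p of at least 1.3, with a median of 2.01. Because the list holds only regions the authors selected on this same contrast, directions and sizes below describe the selected regions. Most of them, 2081 (74.9%), lay within 2 kb of the start of a protein-coding gene: 1219 higher and 862 lower. A further 192 lay in gene bodies (140 higher, 52 lower) and 255 between genes (222 higher, 33 lower). The remaining 252 (188 higher, 64 lower) overlapped recurrent stretches, defined as bases that at least 8 H3K4me3 and at least 8 H3K4me1 libraries cover with a peak. The share listed higher was thus 58.6% at gene starts, 72.9% in gene bodies and 87.1% between genes.

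**Figure D2:**
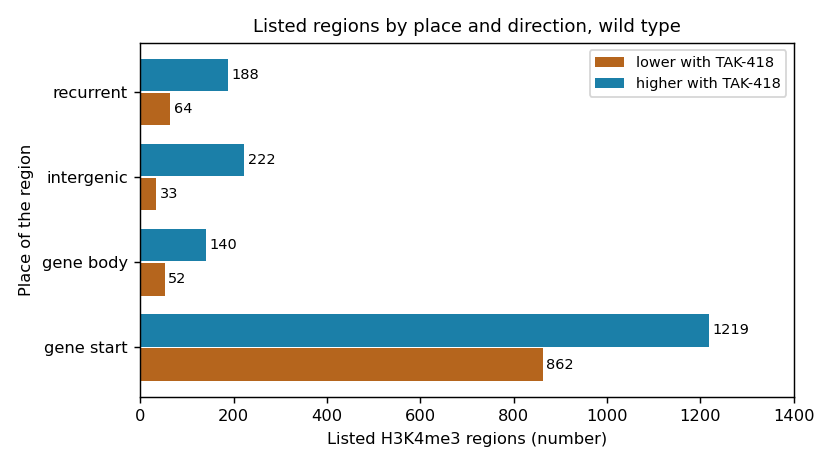
Number of listed wild type H3K4me3 regions by place, higher or lower with TAK-418 by the mean of the deposited scores. Gene starts hold 1219 higher and 862 lower regions; between genes 222 are higher and 33 lower.

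No region passed limma's test on log2(score + 1) after Benjamini-Hochberg adjustment over the 2780 regions (0 called, 0%, smallest adjusted p 0.779). At an unadjusted p under 0.05, limma called 23 regions higher (0.827%) and 43 lower (1.55%). The TAK-418 scores all exceeded the vehicle scores in 11 regions (0.396%), and all lay below them in 4 (0.144%). A random split of alike scores, 4 against 4, separates them fully in a share of 0.0286, counting both directions. Full separation of the deposited scores was thus rarer than random splits give. That share takes all scores of a region as alike, which the third scores, described below, were not. With any 1 score left out, where fewer scores have to separate, the counts of fully separated regions were 13 to 178 higher and 4 to 288 lower. Both were highest without the third score of a group (178 higher without that of vehicle, 288 lower without that of TAK-418). With each score divided by its median over the list outside recurrent stretches, they were 82 higher and 213 lower, so that the lower side became the larger. Without the second vehicle score limma called 3 regions, described with the Y chromosome below.

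The third score of each group stood apart from the others across the list. The third score of one group correlated at 0.865 with that of the other (Pearson, log2 scale, across regions, which are not independent replicates). Each of them correlated at 0.230 to 0.494 with the other scores, while those correlated at 0.591 to 0.835 among themselves. At gene starts the median score was 56, 89, 162 and 91 with vehicle and 66, 67, 211 and 84 with TAK-418. The third score was the highest there in both groups. Between genes the order was turned: 149, 139, 42 and 118 with vehicle and 168, 179, 60 and 150 with TAK-418, with the third score the lowest. The list does not say which library a score belongs to, so the scores were not matched to the libraries. In the Y signal given below, their order is that of the libraries by accession, but this match was not tested.

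The lower and the higher regions at gene starts differed in which scores carried the difference. In the 862 lower regions the medians of the 3 scores other than the third were 65, 114 and 126 with vehicle and 42, 39 and 62 with TAK-418. Their mean log2 difference had a median of −1.04. The third score there had a median of 187 with vehicle and 174 with TAK-418, a median log2 difference of −0.10, and was lower in 61.3% of these regions. In the 1219 higher regions the other 3 scores had medians of 50, 76 and 69 with vehicle and 84, 89 and 102 with TAK-418, a median log2 difference of 0.49. The third score there was 145 with vehicle and 244 with TAK-418, a median log2 difference of 0.74, and was higher in 97.9% of the regions. By these unscaled scores, the lower regions rest mostly on 3 of the 4 scores, and the higher ones on all 4. Over the list outside recurrent stretches, the third score had a median of 152 with vehicle and 200 with TAK-418. How much of the pattern goes with that offset was not tested.

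**Figure D3:**
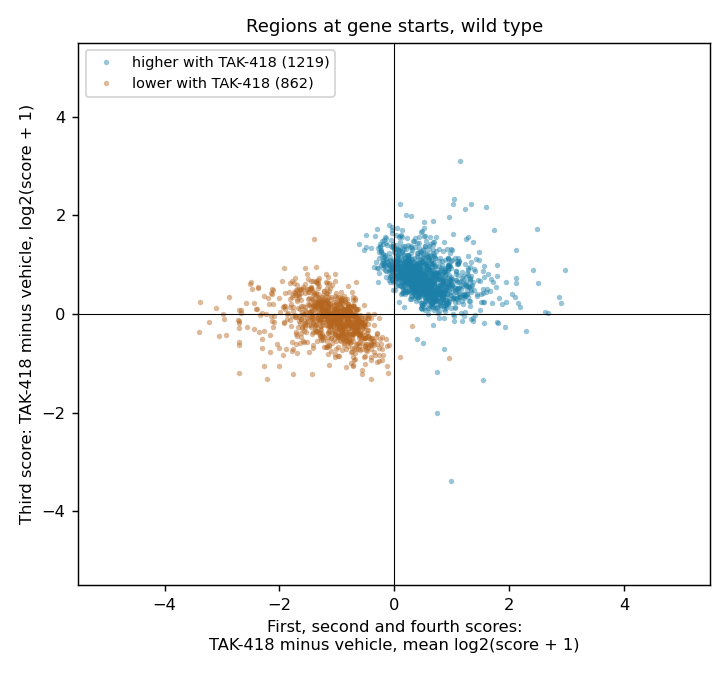
Log2 difference (TAK-418 minus vehicle) of the third score against that of the mean of the other 3 scores, 1 point per region at a gene start. The scores are not scaled. Lower regions spread along the horizontal axis around a median of −0.10 on the vertical axis; higher regions sit at a median of 0.74 there.

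Leaving out the third TAK-418 score changed the direction of many regions at gene starts, to 736 higher and 1344 lower. Without the third score of both groups, an alternative chosen after seeing the data, there were 1143 higher and 935 lower. Of the 2081 regions at starts, 179 then had TAK-418 scores all above vehicle and 276 all below. The adjusted limma count was 0 in both settings, while the counts at an unadjusted p under 0.05 were 59 higher and 387 lower without the third TAK-418 score, and 111 higher and 285 lower without the third score of both groups. Without the third vehicle score they were 98 higher and 46 lower. With the third score of both groups kept and given a term of its own in the fit, also an alternative chosen after seeing the data, they were 183 higher and 139 lower, with 0 adjusted calls. The balance of these unadjusted calls thus depends on how the third score is treated.

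At gene starts, the groups did not overlap in 9 regions listed higher. The list was selected on this contrast, and scaling changed how many regions separated, so separation does not single these regions out. With each score divided by its median, 82 regions separated higher and 213 lower across the list. Differences given for single regions are TAK-418 minus vehicle in the mean of log2(score + 1). For all regions of the named genes except the second of Kmt2d, limma's adjusted p was 0.779. Notum encodes an extracellular enzyme that inactivates Wnt proteins. Its region, chr11:120660451-120661150, at an end of the gene, scored 19, 78, 63 and 33 with vehicle and 174, 110, 207 and 100 with TAK-418. The difference was 1.72 (limma SE 0.73). Hs3st4 encodes a heparan sulfate 3-O-sulfotransferase, an enzyme that modifies sugar chains of the cell surface. The region at its start, chr7:123982801-123983250, scored 17, 57, 36 and 42 with vehicle and 83, 107, 172 and 78 with TAK-418. The difference was 1.56 (SE 0.72), and the region's centre lay 198 bases past the start whose promoter is printed above. Ror2 encodes a receptor tyrosine kinase for Wnt proteins. Its region, chr13:53285801-53286150, scored 41, 14, 35 and 31 with vehicle and 74, 155, 58 and 55 with TAK-418, a difference of 1.43 (SE 0.72). Only 1 of the 8 libraries had a peak over this Ror2 region, against 2 for those of Notum and Hs3st4.

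Lin28b encodes an RNA-binding protein that blocks the maturation of let-7 microRNAs. Its region, chr10:45485951-45486600, scored 32, 65, 136 and 99 with vehicle and 164, 150, 218 and 196 with TAK-418, a difference of 1.29 (SE 0.72). The vehicle scores spread widely here, and all treated scores lay above the highest of them, 136. Gnal encodes a G protein alpha subunit of olfactory and striatal neurons. At an end of that gene the scores were 13, 46, 57 and 20 with vehicle and 92, 95, 90 and 86 with TAK-418, a difference of 1.62 (SE 0.73). The treated scores at Gnal had the narrowest spread of the 9 regions (90.8 ± 3.77, SD, n = 4). Dhrs13, of the short-chain dehydrogenase family, scored 25, 69, 59 and 46 with vehicle and 123, 124, 129 and 104 with TAK-418 (difference 1.34).

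The other 3 were Tmem200b, Dennd3 and Fcgr3. Tmem200b scored 21, 68, 21 and 54 with vehicle and 84, 98, 102 and 82 with TAK-418 (difference 1.32). Dennd3, which encodes an exchange factor for a Rab GTPase, scored 42, 72, 73 and 33 with vehicle and 92, 87, 228 and 108 with TAK-418 (difference 1.17). Fcgr3, an IgG receptor of myeloid cells, had the largest authors' −log10 p at a gene start, 10.9. Its region was marked by a peak in all 8 libraries and scored 666, 639, 558 and 634 with vehicle and 879, 766, 1225 and 806 with TAK-418. The difference was only 0.53 (SE 0.70), and Fcgr3 has close paralogs, so its reads may be shared. A second region 5786 bases from the nearest Fcgr3 start, chr1:171071701-171073700, also did not overlap: 366, 475, 261 and 365 with vehicle and 497, 585, 807 and 648 with TAK-418.

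**Figure D4:**
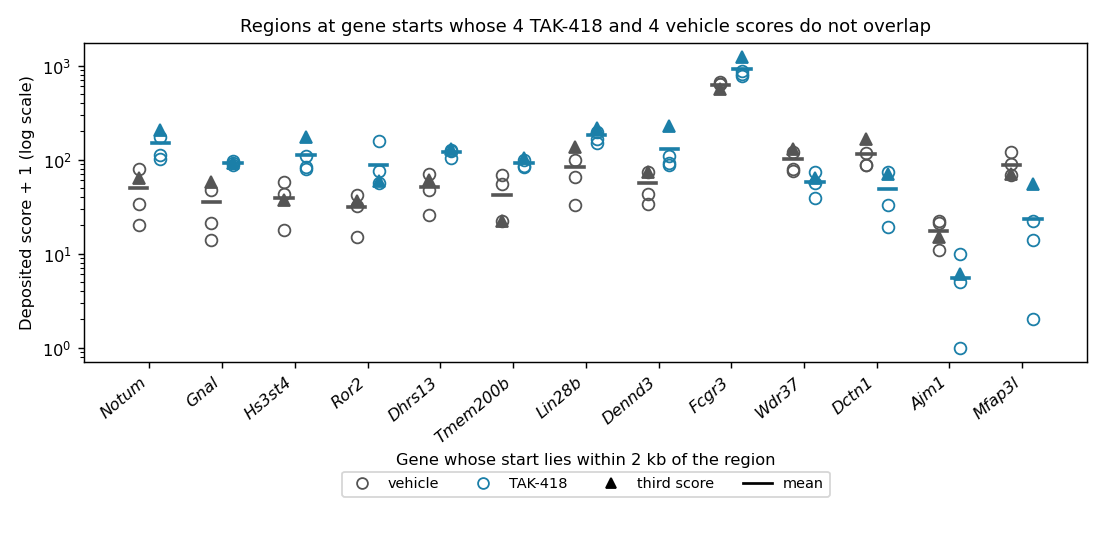
Deposited scores plus 1 (log axis) of the 13 regions at gene starts whose groups do not overlap, with vehicle in grey, TAK-418 in blue, the third score as a filled triangle and the mean as a line. The 9 regions on the left are higher with TAK-418, from Notum to Fcgr3, and the 4 on the right are lower.

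The groups also did not overlap in 4 regions at gene starts listed lower. Mfap3l had the largest difference of all named regions. The region, chr8:60632351-60632750, upstream of its start, scored 67, 88, 70 and 118 with vehicle and 13, 21, 54 and 1 with TAK-418. The difference was −2.64 (SE 0.81). A peak lay there in 5 of the 8 libraries. Dctn1 encodes the large subunit of dynactin, which links dynein to its cargo. Its region, chr6:83179701-83180150, scored 87, 87, 165 and 117 with vehicle and 32, 72, 70 and 18 with TAK-418, a difference of −1.39 (SE 0.73). Wdr37 scored 74, 119, 130 and 79 with vehicle and 38, 73, 62 and 55 with TAK-418 (difference −0.80). The highest treated score at Wdr37, 73, lay just under the lowest vehicle score, 74. At Ajm1, which encodes a junction protein, the 100-base region scored 10, 20, 14 and 21 with vehicle and 4, 0, 5 and 9 with TAK-418. Such low scores give little precision.

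Of the 10 genes with the largest authors' −log10 p among the higher regions, 6 have groups that overlapped. Adrb1, the beta-1 adrenergic receptor, scored 59, 64, 180 and 19 with vehicle and 114, 168, 283 and 139 with TAK-418 (difference 1.44). Sp2, a transcription factor of the SP family, scored 16, 26, 40 and 32 with vehicle and 31, 74, 206 and 53 with TAK-418 (1.36). The vehicle scores 40 and 32 at Sp2 lay above the lowest treated score, 31. Map3k5, a kinase of the stress response, scored 125, 183, 223 and 28 with vehicle and 242, 194, 453 and 183 with TAK-418 (1.18). Trip12, a ubiquitin ligase, scored 57, 77, 249 and 94 with vehicle and 146, 153, 415 and 215 with TAK-418 (1.06). Ankrd28, a regulatory subunit of a protein phosphatase, scored 63, 88, 293 and 70 with vehicle and 255, 87, 391 and 225 with TAK-418 (1.02). In Sowahc the third score dominated, at 412 with vehicle and 781 with TAK-418. Its other scores were 102, 175 and 125 with vehicle and 189, 200 and 211 with TAK-418 (difference over all 4 0.69).

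Among the lower regions with the largest authors' −log10 p, 9 had groups that overlapped, and in 8 of them only the third treated score reached the vehicle range. Hagh encodes a glyoxalase that clears methylglyoxal products. Its start scored 170, 178, 358 and 177 with vehicle and 31, 94, 233 and 50 with TAK-418, a difference of −1.44 (SE 0.75). Elovl4, an elongase of very long chain fatty acids, scored 113, 211, 182 and 248 with vehicle and 37, 50, 184 and 65 with TAK-418 (−1.39). Pcif1, a methyltransferase of the mRNA cap, scored 96, 98, 157 and 150 with vehicle and 14, 8, 172 and 16 with TAK-418 (−2.29, SE 0.80). At Pcif1 and at Elovl4 the third treated score lay within or above the vehicle range, and the other treated scores lay far below it.

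Pbx2, a homeodomain factor, scored 89, 124, 202 and 144 with vehicle and 49, 9, 133 and 45 with TAK-418 (−1.69). Tigd2 scored 78, 92, 190 and 233 with vehicle and 35, 6, 150 and 60 with TAK-418 (−1.79). Rraga, a GTPase that relays amino acid levels to mTOR, scored 80, 73, 198 and 212 with vehicle and 20, 42, 116 and 64 with TAK-418 (−1.30). All 3 share the pattern of 3 treated scores under every vehicle score. Stx2, a syntaxin of membrane fusion, scored 40, 95, 181 and 55 with vehicle and 15, 12, 77 and 26 with TAK-418 (−1.63). Prkca, protein kinase C alpha, scored 109, 211, 381 and 216 with vehicle and 41, 89, 285 and 91 with TAK-418 (−1.07). Bahcc1, a chromatin protein with a BAH domain, scored 152, 398, 487 and 318 with vehicle and 146, 61, 409 and 228 with TAK-418 (−0.87). A second Bahcc1 region, in the gene body, was also listed lower, with means of 306 ± 184 and 198 ± 139 (SD, n = 4).

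Of all 21900 protein-coding genes, 1317 (6.01%) had a listed region at their start that was higher and 946 (4.32%) one that was lower, by the region with the largest authors' −log10 p. The counts of gene lists below are read beside these shares. Among the 12192 genes with a peak at their start in both long libraries the shares were 10.7% higher and 7.72% lower. The median log2 difference over all listed genes was 0.31.

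For the target of TAK-418 and its partners, Kdm1a, Rcor1, Gfi1 and Gfi1b had no listed region at their start. Kdm1a and Rcor1 had a peak there in 3 of the 8 libraries, Gfi1 in 1 and Gfi1b in 0. Of 17 genes of the LSD1-CoREST list, 2 were listed higher and 0 lower, a share of 11.8%, near the 10.3% of all protein-coding genes with a listed region. Gse1, a subunit found with CoREST, scored 39, 72, 79 and 42 with vehicle and 127, 32, 178 and 95 with TAK-418. Insm1, a neuroendocrine factor that recruits LSD1, scored 57, 76, 202 and 70 with vehicle and 130, 141, 254 and 145 with TAK-418 (log2 difference 0.86).

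The H3K4 methyltransferases and their subunits split evenly, with 5 of 20 genes listed higher and 5 lower (median log2 difference −0.07). The higher ones were Psip1, Ncoa6, Paxip1, Kmt2e and Kmt2a, and the lower ones Kmt2d, Dpy30, Setd1b, Men1 and Kmt2c. The third score was higher with TAK-418 in all of the former and lower in all of the latter. Kmt2d, the gene interrupted in the heterozygotes, has 2 adjacent regions at its start with opposite directions. The region chr15:98870851-98871350 scored 14, 119, 162 and 157 with vehicle and 16, 45, 124 and 56 with TAK-418, a difference of −0.76 (SE 0.80). The next, chr15:98871401-98872250, scored 181, 188, 305 and 148 with vehicle and 222, 132, 576 and 216 with TAK-418, a difference of 0.31 (SE 0.73, adjusted p = 0.790). Without the third TAK-418 score the second difference was −0.10. Dpy30, a core subunit, scored 67, 105, 224 and 150 with vehicle and 61, 34, 186 and 48 with TAK-418 (−0.91).

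Of 6 genes for H3K4me3 demethylases, 3 were listed lower (50%) and 1 higher. Among all genes with a peak in both long libraries, 7.72% were listed lower, and a list of 6 gives an imprecise share. Kdm2b scored 69, 131, 182 and 210 with vehicle and 14, 22, 264 and 39 with TAK-418, a difference of −1.65 (SE 0.80). The third treated score of Kdm2b lay above every vehicle score and the other 3 below. Kdm5a scored 91, 148, 378 and 156 with vehicle and 47, 38, 298 and 133 with TAK-418 (−0.86). Kdm5b, whose enzyme removes the mark at many promoters, had the smallest difference of the 3, −0.37. Riox1 was the higher one (0.36).

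Of 47 ribosomal protein genes, 45 had a peak at their start in both long libraries. Of the 47, 13 were listed lower (27.7%, beside 4.32% of all genes and 7.72% of genes with a peak in both) and 0 higher. Their median log2 difference was −0.82, within a range of −1.16 to −0.51. The median of their scores was 60, 83, 158 and 97 with vehicle and 28, 42, 126 and 40 with TAK-418. All 862 lower regions at gene starts had a median difference of −0.80. Their median scores were 65, 114, 187 and 126 with vehicle and 42, 39, 174 and 62 with TAK-418. The size of the ribosomal differences was thus near that of lower regions at large. Rpl8 scored 126, 160, 293 and 140 with vehicle and 76, 42, 260 and 63 with TAK-418 (−0.98). Rpl15, whose promoter is printed above, scored 57, 64, 176 and 87 with vehicle and 28, 69, 113 and 40 with TAK-418 (−0.66). Rplp2 scored 85, 68, 128 and 83 with vehicle and 39, 43, 106 and 38 with TAK-418 (−0.78). Without the third score, the mean log2 score was lower with TAK-418 in all 13, as in 99.7% of the 862 lower regions at gene starts. The groups then did not overlap in 5 of the 13, beside 276 separated lower among all 2081 regions at gene starts, of either direction. Of the 13, the third score was lower in 8 and higher in 5, for instance in Rpl5 (210 with vehicle and 277 with TAK-418) and Rpl19 (178 and 252). None of the 13 separated the groups with all 4 scores, and none passed limma.

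**Figure D5:**
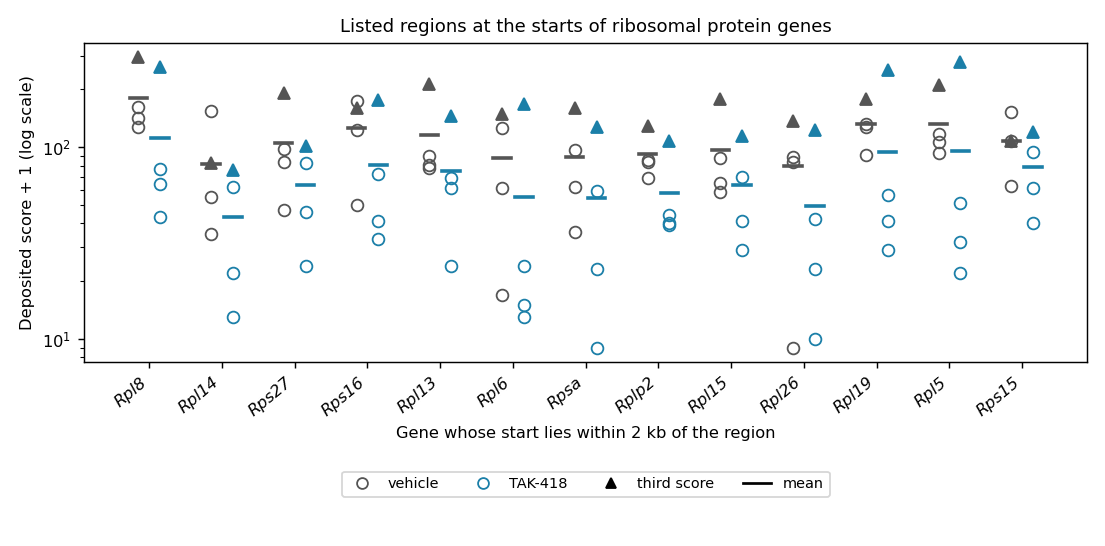
Deposited scores plus 1 (log axis) of the 13 listed regions at starts of ribosomal protein genes, with vehicle in grey, TAK-418 in blue, the third score as a filled triangle and the mean as a line. In all 13 the mean is lower with TAK-418, while the third treated score exceeds the third vehicle score in 5.

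The peak lists give another view of the ribosomal genes, from the same libraries. Whether the selection of regions used these peaks is not stated. A peak lay at the start of 0, 0, 47 and 3 of the 47 genes in the TAK-418 libraries and of 0, 5, 45 and 3 in the vehicle libraries. The libraries with short lists reached too few of these starts to compare the groups. In the heterozygote list of TAK-418 against vehicle, 1 ribosomal protein gene was higher and 1 lower, or 2.13% each way, beside 2.19% and 2.10% of all genes there.

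Of 56 Wnt pathway genes, 8 had a listed region, 7 higher (12.5%, beside 6.01% of all genes and 10.7% of genes with a peak in both long libraries) and 1 lower, with a median log2 difference of 0.71. Apart from Notum, the ligand Wnt4 scored 145, 115, 206 and 88 with vehicle and 203, 217, 327 and 179 with TAK-418 (0.77). The receptor Fzd2 scored 26, 20, 52 and 0 with vehicle and 21, 82, 173 and 53 with TAK-418. Its difference of 2.29 (SE 0.89) rests on a vehicle score of 0. The co-receptors Lrp6 (0.66) and Lrp5 (0.84), the ligand Wnt5b (0.51) and the transducer Ctnnb1 (0.53), which encodes β-catenin, were the others. Ctnnb1 scored 84, 162, 261 and 136 with vehicle and 221, 114, 493 and 170 with TAK-418. Fzd8 was the lower member, at 118, 151, 247 and 183 with vehicle and 50, 33, 242 and 51 with TAK-418 (−1.31). Ror2 is not in this list.

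Neural progenitor and neurogenesis genes had 4 of 34 listed higher (11.8%) and 0 lower. The higher share was near the 10.7% of genes with a peak in both long libraries. Sox4 scored 98, 75, 264 and 153 with vehicle and 155, 138, 492 and 174 with TAK-418 (0.65). Sox11, its close relative in new neurons, scored 39, 54, 115 and 66 with vehicle and 158, 58, 192 and 64 with TAK-418 (0.70). Lhx2, a factor of cortical progenitors, had a difference of 0.97. Insm1, given above, was the fourth and the one whose groups did not overlap without the third score. Of the let-7 and Lin28 list, 2 of 10 were higher (20%) and 0 lower. These were Lin28b and Igf2bp2, an RNA-binding protein and let-7 target, which scored 32, 29, 74 and 23 with vehicle and 74, 106, 95 and 57 with TAK-418 (1.16).

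Excitatory hippocampal neuron markers had 3 of 26 higher (Man1a, Tyro3 and Kcnq5, with differences of 0.97, 0.85 and 0.47) and 0 lower. Synaptic vesicle release had 3 of 31 higher and 0 lower. These shares, 11.5% and 9.68%, were near the 10.7% of genes with a peak in both long libraries. Cplx2, a complexin, scored 85, 114, 103 and 127 with vehicle and 87, 114, 308 and 153 with TAK-418, so its difference of 0.47 came mainly from the third score. Unc13b and Rims2 had 0.62 and 0.37. Ion channels had 4 of 46 higher and 4 lower, among them Cacna2d1 (1.12) and Hcn2 (1.02) on one side and Clcn2 (−1.22) and Kcna2 (−1.05) on the other. Glutamate and GABA receptors had 2 of 39 higher (Grik5 and Grin2d) and 3 lower, among them Grid1 (−0.55).

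Immediate early genes, which respond first to activity, had 5 of 22 higher (22.7%) and 1 lower. Among all genes with a peak in both long libraries, 10.7% were listed higher and 7.72% lower. Fosl2 scored 62, 24, 157 and 19 with vehicle and 143, 141, 209 and 30 with TAK-418 (1.19). Nr4a2 (0.53), Jun (0.48), Homer1 (0.41) and Ier5 (0.24) had smaller differences, and Junb was lower (−0.81). All 22 of these genes had a peak at their start in both long libraries. Heparan sulfate synthesis had 3 of 23 higher (Hs3st4, Hs6st3 and Ndst1) and Hs3st1 lower (−0.66). Chromatin genes of neurodevelopmental disorders had 9 of 49 higher (18.4%), led by Crebbp (0.68) by authors' −log10 p, and 6 lower (12.2%). Respiratory chain genes had 3 of 40 higher and 2 lower, and clock genes 1 of 19 higher (Bhlhe41, 0.84) and 2 lower (Rora and Clock).

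Astrocyte markers had 2 of 17 listed (11.8%, beside 10.3% of all genes), Fgfr3 higher (0.57) and Slc1a2 lower (−0.57), and microglia and macrophage markers had Fcgr3 alone. No member was listed at its start for inhibitory neurons (22 genes), the oligodendrocyte lineage (16), vascular cells (18), choroid plexus and ependyma (11) or blood cells (14). Hox genes (39) and genes of interferon response and antigen presentation (29) had none either. A peak lay at the start in both long libraries for 14 of 29 interferon and 9 of 22 inhibitory neuron genes, beside 55.7% of all genes. The same held for 5 of 16 oligodendrocyte, 6 of 18 vascular, 2 of 11 choroid plexus, 0 of 14 blood and 2 of 39 Hox genes.

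The promoters of listed genes were richer in G and C than those of other marked genes. In the 250 bases before the start, the median GC content was 68% for 960 starts with a higher region and 64% for 695 with a lower one. It was 60.4% for 10371 starts of unlisted genes with a peak in both long libraries, and 55.6% for all 21263 starts of the RefSeq table. The median number of CpG dinucleotides was 23, 20, 16 and 10 in the same order. The GC box was in 76.6% of higher and 69.6% of lower promoters, against 58.6% of unlisted marked ones and 42.6% of all. The ETS core went the other way, in 11.5% of higher and 17.4% of lower promoters, against 13.1% of unlisted marked ones and 8.98% of all. These counts use either strand, were not tested and describe letters, not binding.

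The other motifs searched follow. The NRF1 motif GCGCATGCG was in 2.5% of higher and 4.17% of lower promoters, against 2.97% of unlisted marked ones and 1.93% of all. The TATA box TATAAA was in 4.17% and 4.03%, against 6.04% and 11.6%. CCAAT was in 28.1% and 33.2%, against 35.7% and 35.4%. The E box CACGTG was in 8.02% and 7.77%, against 8.33% and 6.63%, and the CRE TGACGTCA in 2.81% and 2.45%, against 2.72% and 1.92%. The YY1 letters AAGATGGCG were in 0.938% and 1.73%, against 1.05% and 0.720%. The letters AAATCAC, the core bound by GFI1, a partner of LSD1, were in 0.938% of higher and 1.15% of lower promoters, against 1.74% of unlisted marked ones and 2.48% of all. Of 12 starts of ribosomal protein genes with a lower region, 3 held the ETS core and 5 the GC box, and their median GC content was 58.4%. The regions lay just past the start, with the centre at a median of 259 bases downstream for higher and 293 for lower regions.

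Of the regions between genes that were listed higher, the 5 with the largest authors' −log10 p lay 35016 to 1074006 bases from the nearest start and had high scores, with the third score the lowest of each group, as in recurrent regions. The region chr2:74184301-74184650 scored 12429, 10165, 3817 and 8519 with vehicle and 13771, 16476, 4023 and 9026 with TAK-418, a log2 difference of 0.25. The region chr12:94617651-94618000 scored 8512, 6085, 2349 and 5822 with vehicle and 8714, 10868, 2630 and 6147 with TAK-418 (0.28). In both, the third score was the lowest of each group and the second treated score the highest, and groups overlapped widely. In gene bodies the leading region, chr7:104427851-104428200 in Trim30a, reached 393977, 292681, 112965 and 267437 with vehicle and 406701, 468889, 129343 and 295803 with TAK-418 (0.27). Its order of scores was the same. The median length of regions between genes was 350 bases, against 450 at gene starts. Whether these stretches carry the mark was not tested.

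Regions on the sex chromosomes and in mitochondrial DNA were listed higher almost throughout: 29 of 31 on X, 20 of 20 on Y and 10 of 11 on M. Most of those on X and Y lay between genes, where 87.1% of the whole list was higher. The 3 regions that limma called without the second vehicle score all lay on Y. One, chrY:11857951-11858500, scored 0, 550, 0 and 0 with vehicle and 533, 0, 204 and 0 with TAK-418. The others, chrY:140601-140900 and chrY:145251-145650, had the same pattern, with 243 and 280 in the second vehicle score and 311 and 301 in the first treated score. A Y signal was thus carried by 1 vehicle score and 2 treated scores, and sex is not given in the labels. Ddx3x, an X-linked RNA helicase that escapes X inactivation, scored 55, 66, 447 and 190 with vehicle and 50, 89, 229 and 90 with TAK-418, and was the lower region at an X-linked gene start with the largest authors' −log10 p. Median mitochondrial scores were 277, 79, 49 and 61 with vehicle and 251, 260, 41 and 136 with TAK-418. On autosomes alone 1710 regions were higher and 1008 lower.

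The heterozygote mice give a separate set of libraries under the same contrast, and they share no sample with the wild type groups. Of the 2081 wild type regions at gene starts, 324 (15.6%) overlapped a region of the heterozygote list by at least 1 base, and these met 37.7% of its 860 regions at gene starts. Directions matched in 172 of the 324 (53.1%). Of the wild type regions listed higher, 112 met a higher and 102 a lower heterozygote region, and of those listed lower, 60 met a lower and 50 a higher one. Between genes, directions matched in 115 of 135 overlaps (85.2%), where 91.2% of all heterozygote regions between genes were higher. In gene bodies they matched in 73 of 88 (83.0%), where 86.5% were higher. Of the named genes, Fcgr3 and Trip12 had a heterozygote region at their start. Fcgr3 was higher there too (145 ± 33.2 with vehicle and 238 ± 88.7 with TAK-418, SD, n = 4), and Trip12 was lower (136 ± 84.0 and 84.0 ± 71.6).

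The H3K4me1 list of wild type mice, with 538 regions, came largely from the same mice. It held 19 regions at gene starts, and 5 wild type H3K4me3 regions there overlapped one. Between genes 89 of 255 H3K4me3 regions (34.9%) overlapped a H3K4me1 region, and these met 41.5% of its 217 regions between genes. Of the 83 listed higher for H3K4me3, 62 were lower and 21 higher for H3K4me1. In the H3K4me1 list as a whole 64.1% of regions between genes were lower. In gene bodies, 29 of 39 regions higher for H3K4me3 were lower for H3K4me1, beside 62.6% of all H3K4me1 regions there.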

How the data were processed

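H3K4me3 ChIP-seq libraries of 4 wild type mice given TAK-418 and 4 given vehicle were used, with groups taken from the labels. The authors' peak lists give for each peak a fold enrichment, which is a ratio, and the −log10 of its p and q. The tools MACS2, MACS and bedtools and the assembly mm10 come from the submitters' processing notes, without versions or roles. Aligner, control library and thresholds are not given in the sources used here. In addition, the authors' deposited lists of differential regions give a −log10 p and 1 whole-number score per library. What made these scores, their unit and normalization, and the library behind each, are likewise not stated, and they were treated as unordered scores of a group. The mark of the H3K4me1 list, whose name gives none, was taken from its 3 values in the TAK-418 group.

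Genes came from RefSeq (GRCm38), with starts of 17492 of 21900 protein-coding genes from the promoter table plus their outer 5′ ends. For the other 4408 genes, whose strand was not in the table, both ends served. Regions within 2 kb of a start were assigned to it. Recurrent stretches, which at least 8 H3K4me3 and 8 H3K4me1 libraries cover with a peak, numbered 232 and covered 357 kb. Library measures were compared on log10 values by two-sided exact permutation. Regions were tested with limma 3.58.1 (R 4.3.3) on log2(score + 1), Benjamini-Hochberg adjusted over all 2780 regions. The step was run on simulated independent scores with less spread than observed and without the pattern of the third score. Its power on the real scores was thus not tested. Python 3.11.15 with pandas 2.3.3, numpy 2.4.6 and matplotlib 3.10.9 was used. Nothing in the labels says whether mice were processed in batches, so p-values measure the spread between these libraries. Because mouse numbers split by treatment, a difference that goes with the numbers cannot be told apart from one of TAK-418.

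Named genes were the 10 higher and 10 lower regions at starts with the largest authors' −log10 p, those with no overlap of groups, and Kdm1a, Kmt2d, Rcor1, Gfi1 and Gfi1b. Members of the 25 gene lists (677 of 680 entries annotated) were named as examples after their values were seen. The members and lists were chosen with earlier results of these data known. Alternatives were other thresholds, distances, pseudocounts and scalings, and leaving out each library or score. Values of some list members are not reported here.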

Additional observations from a re-analysis of the deposited data

Results flagged for a closer look

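In a group of 4, a value was singled out when its gap to the nearest other value took more of the group's range than Dixon's critical value for 4 values allows, which chance gives in about 1 of 20 groups. All 6 groups of library values held 1 such value, each from the library with an index of the first class. With TAK-418 these were 16750 peaks, 19067 kb covered and 13397 genes with a peak at their start. With vehicle they were 13343 peaks, 13618 kb and 12338 genes.

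Of the 60 groups of scores of named regions, 5 held such a value, and all 5 were the third score, which also stood apart across the list. These were Sowahc with TAK-418 (781), Ankrd28 with vehicle (293), Dennd3 with TAK-418 (228), Hagh with vehicle (358) and Pcif1 with TAK-418 (172).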

How the results depend on the processing

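No paired analysis was possible because the labels give no replicate number that the groups share. With peaks of a −log10 q of at least 5 alone, the log10 differences of the library measures were 0.0162 (peaks), 0.0411 (covered length) and 0.0471 (genes with a peak at their start), and none passed the exact test. With 1 library left out they ranged from −0.483 to 0.140, −0.406 to 0.235 and −0.663 to 0.0853. The limma count was 0 in every setting but 1, and 0 to 3 with 1 score left out, where 3 came without the second vehicle score. With a term for the third score it was 0, with 183 higher and 139 lower at an unadjusted p under 0.05, against 23 and 43; that term marks a score position, not a pairing from the labels. With authors' −log10 p of at least 3, 406 regions were higher and 164 lower in all, 214 and 142 at gene starts, and 44 in gene bodies and 72 between genes were higher. With a distance of 500 bases, 241 regions in gene bodies were higher. With 1 score left out, 1274 to 1786 regions were higher and 994 to 1504 lower, 736 to 1295 and 783 to 1344 at gene starts. In gene bodies 128 to 141 were higher, and between genes 196 to 222. Regions with no overlap of groups were 82 higher and 213 lower with each score divided by its median. They were 273 and 311 without the third score of both groups (fewer scores, an alternative added after seeing the data), and 13 to 178 and 4 to 288 with 1 score left out. Random splits of alike scores separate a share of 0.1 with 3 scores per group, against 0.0286 with 4. Of 30 named regions, 1 turned in direction, the second of Kmt2d, at −0.0974 without the third TAK-418 score and within −0.0974 to 0.608 with any 1 score left out. The gene lists at 5 kb in place of 2 kb gave 2 higher demethylase genes and 2 lower immediate early genes, and all other counts stayed within 1.5 times. Depth limits every value, since neither reads nor totals come with the scores; for regions with scores of 21 or less, as at Ajm1, 1 unit is a large share of the value.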
